A study of Mus musculus with 20 samples.

Results

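The nuclear genes for the subunits of the 5 oxidative phosphorylation complexes were followed through 20 RNA-seq libraries of embryonic mouse heart. Members were chosen by symbol alone: names that begin with Ndufa, Ndufb, Ndufc, Ndufs or Ndufv and a digit, Sdha to Sdhd, names that begin with Uqcr or Atp5, and Cox4 to Cox8. Of 33495 genes in the table, 84 matched, and 82 were kept after Cox4i2 and Ndufa4l2 were set aside. By name they fell into complex I (36 genes), complex II (4), complex III (7), complex IV (17) and complex V (15). The remaining 3, Cox4nb, Atp5s and Atp5sl, share the letters of a subunit name but are not counted to a complex here. Ndufa4 was kept with complex I by its name, although its protein is now assigned to complex IV.

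The respiratory chain passes electrons from NADH (complex I) and succinate (complex II) through ubiquinone, complex III and cytochrome c to oxygen at complex IV. The proton gradient built on the way drives ATP synthesis by complex V. Apart from complex II, each complex joins subunits from the mitochondrial genome to nuclear subunits such as those described here. Some complex IV subunits exist as a pair of isoforms, a heart and muscle form (Cox6a2, Cox7a1, Cox8b) and a form found in most tissues (Cox6a1, Cox7a2, Cox8a). The embryonic heart relies strongly on glycolysis, and its mitochondria mature over midgestation.

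The study deleted floxed Kmt2d, which encodes a histone H3K4 methyltransferase, in C57BL/6 mice with Cre lines that act in cardiac mesoderm (Mesp1Cre), anterior heart field precursors (Mef2cAHF::Cre) or cardiomyocytes (Tnnt2::Cre). Mutants were Kmt2d fl/fl and controls Kmt2d fl/+. Both carried the Cre and 1 copy of the mTmG reporter, so every comparison of mutants with controls sets loss of both alleles against loss of 1 allele. Whole hearts were taken at E9.0 for Mesp1Cre (4 mutants, 4 controls) and at E11.5 for Tnnt2::Cre (3 mutants, 3 controls), and right ventricle with outflow tract at E11.5 for Mef2cAHF::Cre (3 libraries labelled mutant, 3 labelled control). In all 3 lines only the cells in which the Cre was active lose the gene, and other cells of the dissected tissue keep it. For Mef2cAHF::Cre the titles and the column names of the table give opposite genotypes. The titles were followed, and by the column names each sign of that line turns round.

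Libraries held 21727258 to 45341870 counted reads, of which the members took 0.924% to 1.68%. Reads of the mitochondrial genome took 13.3% to 15.7% in Mesp1Cre mutants and 22.03% to 23.4% in their controls, 30.1% to 30.7% in libraries labelled mutant and 24.8% to 28.2% in those labelled control for Mef2cAHF::Cre, and 19.5% to 25.1% in Tnnt2::Cre libraries. Kmt2d, listed as Mll2, had 156 ± 5.52 CPM (read counts scaled to a common library size, mean ± SD) in Mesp1Cre controls and 133 ± 7.14 in mutants (n = 4 each, adjusted p = 0.0764, edgeR). It had 149.8 ± 20.8 CPM in Tnnt2::Cre controls and 118 ± 4.28 in mutants (n = 3 each, adjusted p = 0.327, edgeR). For Mef2cAHF::Cre it went against the titles, with 149 ± 5.72 CPM in libraries labelled control and 185 ± 3.72 in those labelled mutant (n = 3 each, adjusted p = 0.0359, edgeR). All 15 cardiomyocyte markers were detected in every group. Where fewer cells of a type are present or each cell holds less RNA, a whole-tissue library shows the same fall, so these cannot be told apart.

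The promoters of a few members are printed first, and whether their letters bear on the levels below was not tested. RefSeq promoter windows (GRCm38.p6, 250 bases before to 50 after the start) were matched for 68 of the 82 members. NRF1, GABPA, YY1 and the estrogen-related receptors are factors long linked to genes of the respiratory chain. The NRF1 motif, GCGCA and GCGC with any 1 base between, searched like all others on both strands, stood in 16 of the 68 windows (23.5%) and in 6.60% of 17492 protein-coding promoters of the same length. YY1 (AAGATGGC) matched 14.7% of members and 3.22% of all, GABPA (CCGGAAG) 22.1% and 11.9%, and the estrogen-related receptor sequence AAGGTCA 11.8% and 4.08%. The muscle motifs MEF2 (CTA and TAG with any 4 bases between) and the E-box CAGCTG stood in 1.47% and 8.82% of members, against 3.48% and 15.1% of all. These are matches of letters with no test and no measure of binding.
Printed are the 100 bases before the start of the 3 subunit genes with an NRF1 match in this stretch and the highest log2 fold change between control stages among such genes, and of the isoform pair Cox8b and Cox8a. Capitals mark the NRF1 letters in the first 3 and the E-box in Cox8b. For the pair only NRF1, MEF2 and the E-box were looked for, and Cox8a has none of them in this stretch. The whole window of Cox8a holds a GABPA match, and an E-box also stood in the windows of Atp5b, Ndufa8, Ndufb10, Ndufs5 and Ndufv2.
Ndufa11, chr17:56717662-56717761, plus strand: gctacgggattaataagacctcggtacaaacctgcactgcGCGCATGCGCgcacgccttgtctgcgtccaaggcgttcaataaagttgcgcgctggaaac
Atp5k, chr5:108434400-108434499, minus strand: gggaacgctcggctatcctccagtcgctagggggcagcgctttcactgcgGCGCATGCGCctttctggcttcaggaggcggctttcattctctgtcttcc
Sdha, chr13:74350241-74350340, minus strand: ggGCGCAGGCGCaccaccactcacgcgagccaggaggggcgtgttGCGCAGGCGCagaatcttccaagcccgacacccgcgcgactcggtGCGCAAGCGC
Cox8b, chr7:140900447-140900546, minus strand: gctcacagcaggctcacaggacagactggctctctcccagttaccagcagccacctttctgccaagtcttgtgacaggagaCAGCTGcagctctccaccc
Cox8a, chr19:7217617-7217716, minus strand: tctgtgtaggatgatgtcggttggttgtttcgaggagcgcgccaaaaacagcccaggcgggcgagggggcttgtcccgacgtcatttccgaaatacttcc
By complex, an NRF1 match stood in 7 of 32 matched windows for complex I, 2 of 3 for complex II, 1 of 4 for complex III, 1 of 13 for complex IV and 5 of 14 for complex V. The 82 genes lie on 19 chromosomes, with at most 9 on one of them (chromosome 7), and their median exonic length was 1048 bases, against 1461 for all genes.

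Levels between genes were compared only in the authors' FPKM (fragments scaled to gene length and library size). In E9.0 controls the order was led by Atp5b, the catalytic beta subunit of the ATP synthase, at 639 ± 14.9 FPKM (SD, n = 4). Atp5l, a small membrane subunit, followed at 399 ± 26.7 FPKM and Cox4i1, the ubiquitous form of COX subunit 4, at 365 ± 29.7 FPKM. Atp5l and Cox4i1 lay within their spread, as did Atp5a1 at 286 ± 15.5 and Cox8a at 281 ± 26.3 FPKM. In E11.5 Tnnt2::Cre controls the same 3 genes led, with Atp5b at 928 ± 68.5, Atp5l at 560.3 ± 47.1 and Cox4i1 at 466 ± 48.3 FPKM (n = 3). At the other end Cox8b had a mean of 0.772 FPKM at E9.0 and 7.64 at E11.5. Cox7b2 and Cox8c, isoforms known from testis and named here for their low counts, had at most 16 and 5 reads in a library and did not pass the filter on low counts in any comparison.

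Near-identical copies limit some of these levels. At least 10% of the exonic bases of 16 members recurred elsewhere in the mm9 genome in stretches of 50 bases or more at 98% identity or more. The share was 95.4% for Atp5g2, 92.2% for Cox7a2l and 88.8% for Atp5l. For 7 members at least 10% of exonic bases lay under another gene, such as part of Cox6a2 under Itgad on the opposite strand. Whether the counting used strand is not given in the sources used here, so values of these genes are uncertain. Without the members of either kind, 57 were tested in Mesp1Cre and the median log2 fold change was -0.11, against -0.14 with them. The number of members lower in Mesp1Cre mutants was then 8 of 57, against 13 of 79 with them. In Mef2cAHF::Cre 4 of 58 members, against 8 of 80 with them, were higher in libraries labelled mutant.

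The comparison of E11.5 with E9.0 control whole hearts asked how the chain changed over midgestation. Of 80 members tested, 46 were higher at E11.5 and 1, Cox8a, was lower (edgeR FDR below 0.05), where 19.6% of all 16697 genes were called higher and 18.8% lower. The median log2 fold change of the members was 0.34, against -0.01 for all genes. The higher genes included 24 of 36 in complex I, 2 of 4 in complex II, 4 of 7 in complex III, 7 of 15 tested in complex IV and 9 of 15 in complex V. Stage cannot be told apart here from Cre line, or from a number in the sample names that differs between the lines and whose meaning the labels do not give. Without Tnnt2::Cre control replicate 3, 33 were higher and 3 lower, and without Mesp1Cre control replicate 3, 2 were lower. Calls over all genes, in either direction, were 6401 with all libraries, and 4957 and 6156 without these replicates. All 13 tested erythroid markers were higher too (summed level 5463 to 18043 CPM at E9.0 and 104895 to 162120 at E11.5), as were all 7 epicardial and 8 of 10 macrophage markers. The macrophage markers summed to only 9.81 to 18.6 CPM at E9.0 (53.7 to 59.6 at E11.5). C1qa, C1qc and Emr1 had no reads in E9.0 controls and reached the filter only through E11.5, so their direction was set by the filter. Other lists went both ways, with 7 of 10 mesenchyme markers higher and 1 lower, and 5 of 12 endothelial markers higher and 1 lower. Of 15 cardiomyocyte markers 7 were higher and 4 lower, the latter being Ttn (-1.06 ± 0.17), Myh6 (-0.79 ± 0.13), Ryr2 (-0.75 ± 0.11) and Myl7 (-0.73 ± 0.13). Their part in the members' values was not tested.

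Of 11 reference subunits, mostly of the catalytic cores, 10 rose. Ndufv1, the subunit of complex I that binds NADH, measured 53.2, 60.2, 63.6 and 75.7 CPM in the 4 E9.0 controls and 107, 116 and 136 CPM in the 3 E11.5 controls. The groups did not overlap, and the log2 fold change was 0.89 ± 0.12 (SE, adjusted p = 0.000167, edgeR). Ndufs1, the largest iron-sulfur subunit, rose by 0.78 ± 0.09 on the log2 scale. In complex II the iron-sulfur subunit Sdhb rose by 0.61 ± 0.11 and the flavoprotein Sdha by 0.39 ± 0.11, while the membrane anchors Sdhc (0.08) and Sdhd (-0.01) did not pass the test. The Rieske protein Uqcrfs1 of complex III rose by 0.70 ± 0.09 and the core protein Uqcrc1 by 0.27 ± 0.09. In complex V, Atp5a1 rose by 0.57 ± 0.10 and Atp5b by 0.58 ± 0.09. Cox5a was the 1 of the 11 that did not pass (log2 fold change 0.23 ± 0.10, adjusted p = 0.0773, edgeR).

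The only fall among the 80 members was in complex IV, and so were the highest log2 values, those of Cox8b and Cox6b2. Cox8b, the heart and muscle form of subunit 8, had 0.0825, 0.147, 0.317 and 0.488 CPM in E9.0 controls (2 to 12 reads) and 2.37, 2.43 and 3.34 CPM in E11.5 controls (84 to 108 reads). All 3 later hearts were above all 4 earlier ones, with a log2 fold change of 3.34 ± 0.53 (adjusted p = 0.000504, edgeR). It reached the filter on low counts through the E11.5 hearts, where it is high, so its place among the members tested rests on that group, but it passed as well with every gene of at least 1 count tested. Its partner Cox8a had 128, 137, 147 and 163 CPM at E9.0 and 87.8, 93.1 and 118 CPM at E11.5, without overlap, and fell by 0.56 ± 0.11 on the log2 scale (adjusted p = 0.0023, edgeR). Cox8b was still the minor form, with a share of the summed FPKM of the pair of 0.287% ± 0.224 (SD, n = 4) at E9.0 and 3.96% ± 0.159 (n = 3) at E11.5. Cox6a2 rose by 0.90 ± 0.15 and Cox6b2, a second form of subunit 6b, by 1.77 ± 0.27. Their partners Cox6a1 and Cox6b1 had log2 fold changes of 0.29 ± 0.08 (adjusted p = 0.0204, edgeR) and 0.02 ± 0.09 (adjusted p = 0.884, edgeR). Cox7a1 did not pass (0.46 ± 0.18, adjusted p = 0.0692, edgeR).

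**Figure D1:**
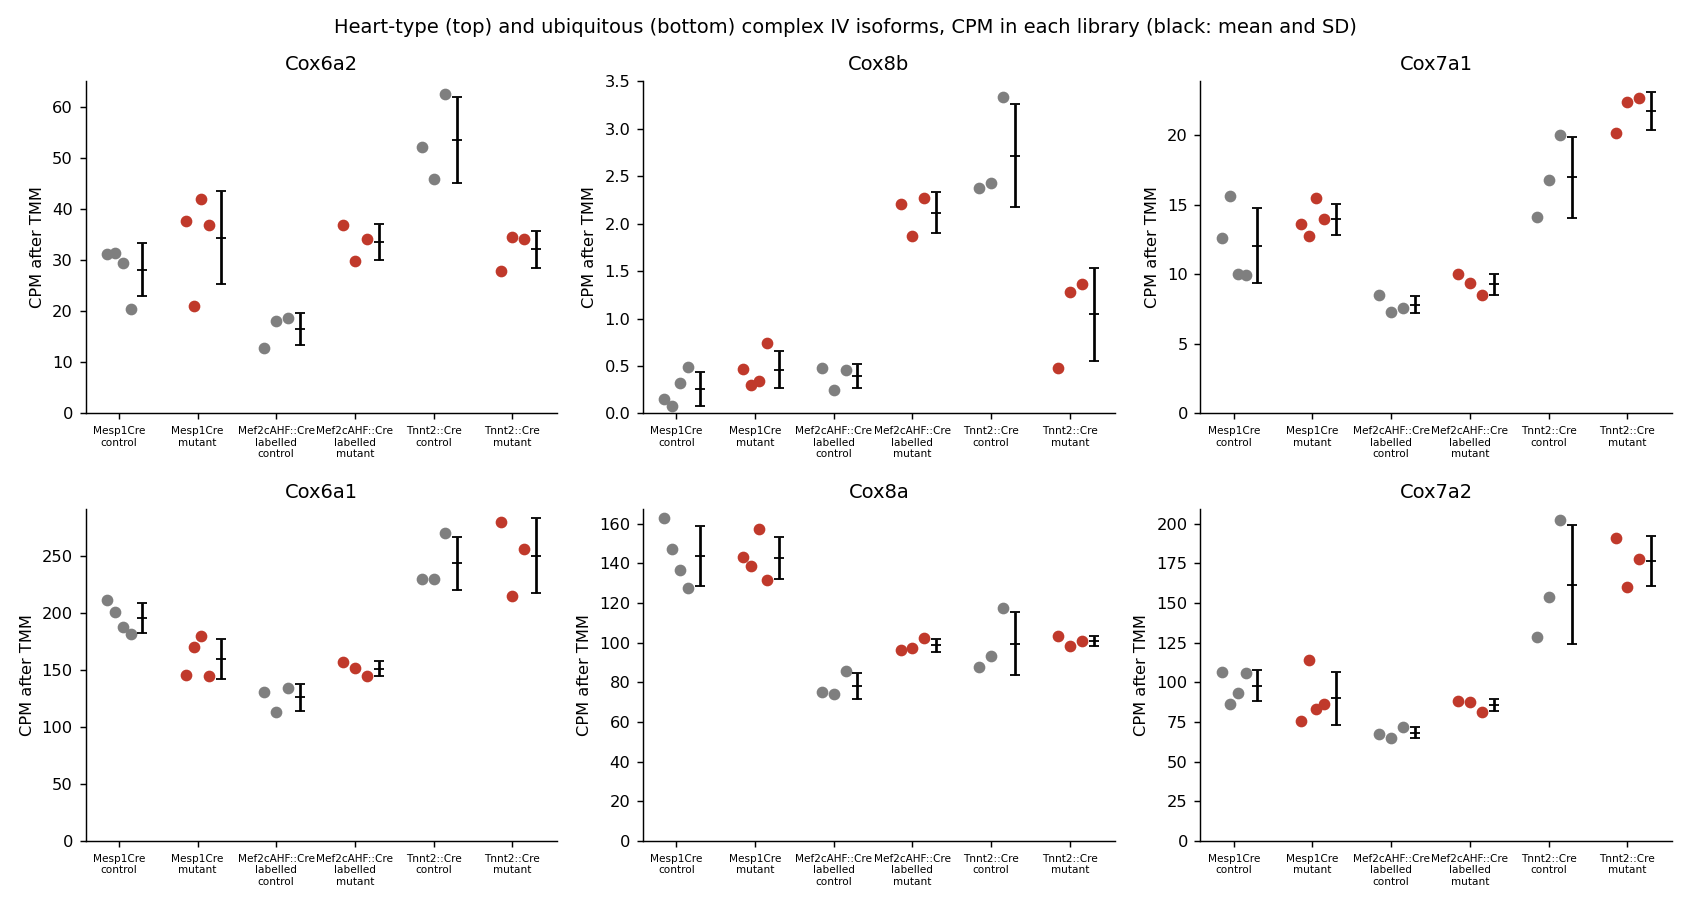
CPM after TMM scaling of the heart-type genes Cox6a2, Cox8b and Cox7a1 (top) and of Cox6a1, Cox8a and Cox7a2 (bottom), 1 point a library, in the 6 groups by the sample titles (grey: controls, red: mutants), with the mean and SD in black; each axis starts at 0. Cox8b stood at 0.488 CPM or less in Mesp1Cre controls and at 2.37 to 3.34 in Tnnt2::Cre controls, whereas Cox8a was lower in the latter.

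Mutant whole hearts, which share no library with the controls, gave a second comparison of the stages. In it, stage again cannot be told apart from Cre line or from the number in the sample names. Here 61 of 80 members were higher at E11.5 and 1, again Cox8a, was lower, where 18.8% of all 16617 genes were called higher and 17.1% lower. The median was 0.60, against 0.01 for all genes. Of the 46 genes higher in controls, 42 (91.3%) were also higher in mutants, where they made up 68.9% of the 61. The other 4 were Cox8b, Cox6b2, Cox6a2 and Ndufv3. The overlap over all genes was not counted, so these shares cannot be called particular to the members. Ndufb10 rose by 1.18 ± 0.13, Sdhb by 1.17 ± 0.10, Atp5l by 1.11 ± 0.13 and Uqcrfs1 by 1.06 ± 0.09 on the log2 scale, and all 11 reference subunits passed the test. Cox8a fell by 0.52 ± 0.09, and Cox7a1 rose by 0.62 ± 0.13. Cox6a2 had 21.1, 36.9, 37.7 and 42.0 CPM in E9.0 mutants and 28.0, 34.1 and 34.5 CPM in E11.5 mutants, so the groups overlapped (log2 fold change -0.11 ± 0.21, adjusted p = 0.699, edgeR). All tested erythroid (13), epicardial (6) and macrophage (10) markers were again higher. Of 10 mesenchyme markers 6 were higher and 1 lower, of 12 endothelial markers 3 and 2, and of 15 cardiomyocyte markers 8 and 4, the lower ones again being Ttn, Myh6, Ryr2 and Myl7. Their part was not tested.

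**Figure D2:**
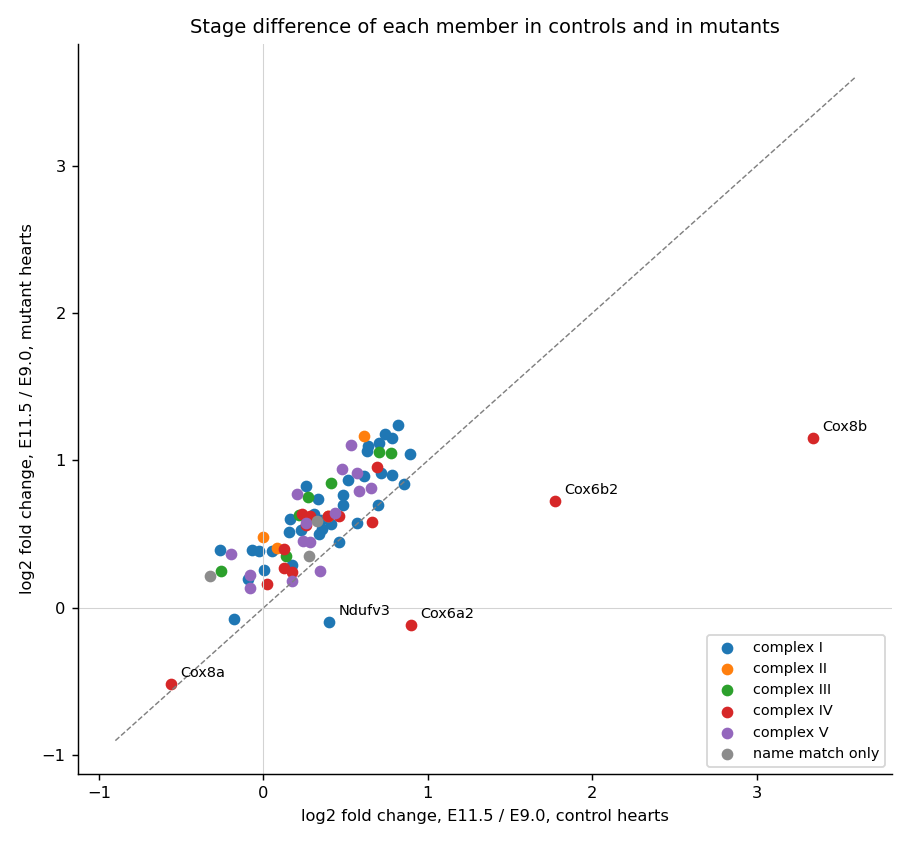
Log2 fold change between E11.5 and E9.0 of each of the 80 members tested, in control hearts and in mutant hearts, coloured by complex; the dashed line marks equal change. Most points lie on the side of the larger rise in mutants, while Cox8b, Cox6b2, Cox6a2 and Ndufv3 lie on the other side.

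The difference between these stage changes is the same contrast as the difference between the genotype effects of Mesp1Cre and Tnnt2::Cre, tested in 1 fit of all 6 groups. Of 80 members, 8 passed, where 1.23% of 18391 genes were called higher and 1.81% lower. For Atp5g3, Atp5l, Ndufa10, Ndufa12, Sdhb, Sdhd and Uqcrc1 the Mesp1Cre effect was lower than the Tnnt2::Cre effect, by 0.46 to 0.64 on the log2 scale. For Cox6a2 it was higher by 1.03 ± 0.28 (adjusted p = 0.0478, edgeR), a call lost with library totals. The 8 adjusted p-values ran from 0.0144 to 0.0484 (edgeR).

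In Mesp1Cre at E9.0, 64 of 79 members tested had values below 0, that is, lower in mutants, with TMM scaling. Past the threshold 13 were lower and 1, Ndufv3, was higher, where 5.29% of all 15883 genes were called lower and 6.17% higher. The median was -0.14 with TMM scaling, but it turned to 0.02 when libraries were scaled by their totals or the authors' FPKM were used, with 3 lower and 4 or 5 higher. Library totals also moved the median of all genes to 0.16, and the FPKM settings moved it to 0.15 and 0.11. Of the 13 lower genes, 5 belonged to complex I, 2 to complex III, 5 to complex V and 1, Cox4nb, to no complex. In complex IV 0 of 14 tested passed in edgeR (4 at an unadjusted p below 0.05).

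Ndufa10, an accessory subunit of complex I, had 89.5, 89.6, 97.1 and 98.2 CPM in controls and 61.9, 66.8, 69.0 and 73.0 CPM in mutants. The groups were well apart, with a log2 fold change of -0.45 ± 0.08 (adjusted p = 0.00443, edgeR). Ndufa11, another accessory subunit, fell by 0.48 ± 0.13 and Ndufa12 by 0.45 ± 0.11. The c subunits of the ATP synthase rotor come from Atp5g1, Atp5g2 and Atp5g3, whose mature proteins are identical. Atp5g1 had 331, 342, 365 and 369.6 CPM in controls and 212, 253, 269 and 278 CPM in mutants, again without overlap (log2 fold change -0.46 ± 0.09, adjusted p = 0.00565, edgeR). Atp5g3 fell by 0.43 ± 0.08, while Atp5g2, most of whose exonic sequence recurs elsewhere, gave 0.08 ± 0.08 and did not pass. Ndufa10, Atp5g1 and Atp5g3 passed under all 10 alternatives and without any 1 of the 8 libraries. Of the reference subunits 1 of 11, Uqcrc1, was lower (log2 fold change -0.30 ± 0.09, adjusted p = 0.0475, edgeR), and it passed under 4 of the 10 alternatives and in 1 of the 8 fits that left out a library.

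Ndufv3, which encodes a small accessory subunit near the NADH site, went the other way. Its values were 39.1, 40.6, 42.8 and 55.5 CPM in controls and 67.0, 73.5, 73.8 and 74.4 CPM in mutants. The lowest mutant was above the highest control, with a log2 fold change of 0.72 ± 0.12 (adjusted p = 0.00208, edgeR). The call held under all 10 alternatives and without any 1 library. For Mef2cAHF::Cre the log2 fold change by the titles was 0.04 ± 0.10 and for Tnnt2::Cre 0.19 ± 0.11, neither past the threshold.

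**Figure D3:**
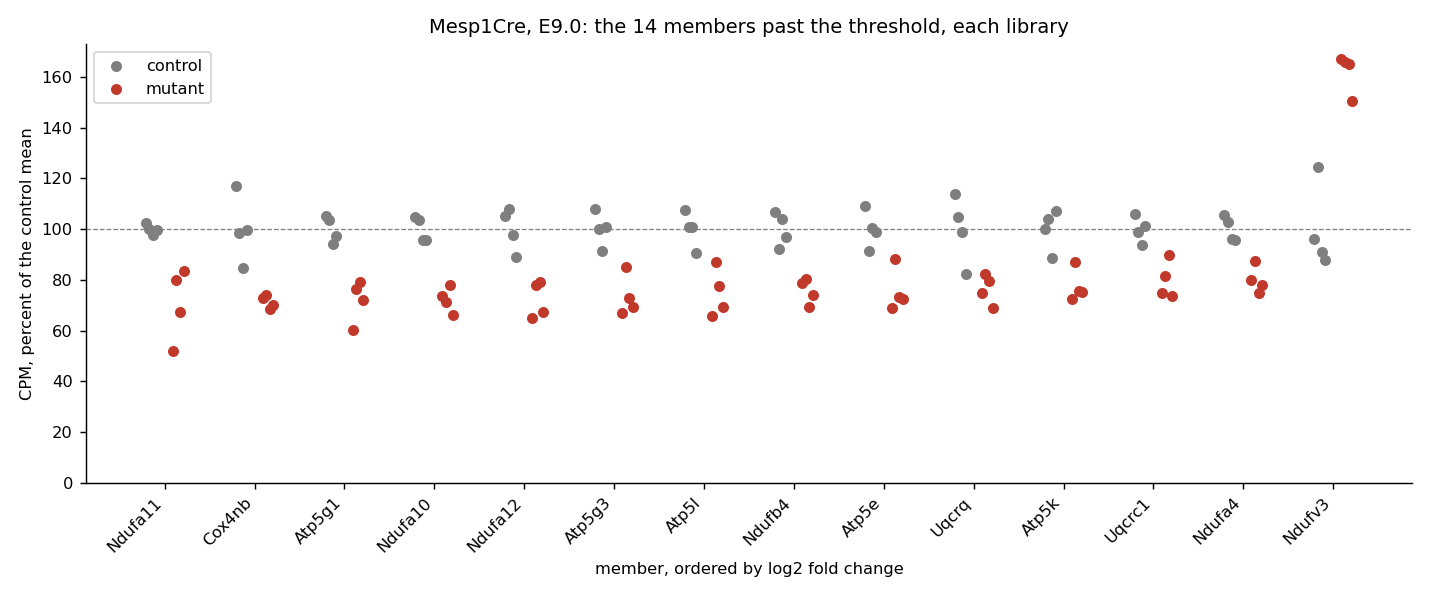
CPM of the 14 members past the threshold in Mesp1Cre hearts at E9.0, with TMM scaling, as percent of the control mean, 1 point a library (grey: controls, red: mutants). The mutants lay lower for 13 genes and higher for Ndufv3; with library totals only 3 members were lower.

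The number of lower members in Mesp1Cre depended on single libraries: it was 3 without control replicate 1 or mutant replicate 1, 4 without mutant replicate 4, 6 without control replicate 2, 7 without mutant replicate 3 and 8 without control replicate 4. Calls over all genes, in either direction, moved as well, from 1821 with all libraries. They were 1133, 1291 and 1190 without control replicates 1, 2 and 4, and 1052, 1286 and 1347 without mutant replicates 1, 3 and 4. Mutants and controls with the same replicate number also share a code in the sample names, and with the number as a block 8 were lower. With this block 1384 of all genes were called in either direction. In the same libraries 5 of 13 erythroid markers were lower (summed level 1947 to 7591 CPM in mutants and 5463 to 18043 in controls) and 4 of 12 endothelial markers higher (746.9 to 857 and 562 to 669 CPM). Of 15 cardiomyocyte markers 2 were higher and 4 lower (55494 to 67907 and 44653 to 57415 CPM). Their part and that of the lower share of mitochondrial reads were not tested. With the genes of the mitochondrial genome left out, 13 members were lower and 1 higher.

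In Mef2cAHF::Cre right ventricle and outflow tract, 8 of 80 members were higher in libraries labelled mutant and 0 lower (edgeR, with 39 at an unadjusted p below 0.05 in either direction and with 17 higher and 0 lower by DESeq2), where 1.81% of all 16920 genes were called higher and 1.04% lower in edgeR. DESeq2 called 1083 of 29606 genes in either direction. For the 39 no count over all genes is given, so it cannot be called particular to the members. By the column names the same 8 would be lower in mutants. The median was 0.20, or -0.20 by the column names, against -0.01 for all genes, and 78 of the 80 values were above 0 by the titles. The 8 were Cox8b, Cox6a2 and Cox7a2 of complex IV, Atp5k, Atp5j2, Atp5h and Atp5l of complex V, and Ndufa5 of complex I. Scaled by library totals, 2 passed and the median was 0.06, with that of all genes at -0.14.

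Cox8b had 0.246, 0.454 and 0.477 CPM in libraries labelled control (7 to 14 reads) and 1.87, 2.20 and 2.28 CPM in those labelled mutant (51 to 84 reads). The groups did not overlap, with a log2 fold change of 2.42 ± 0.31 by the titles (adjusted p = 0.00678, edgeR). Here it reached the filter through the libraries labelled mutant, and it passed as well with every gene of at least 1 count tested. Cox6a2 had 12.8, 18.1 and 18.6 CPM in the former and 29.8, 34.1 and 36.9 CPM in the latter, a log2 fold change of 1.03 ± 0.15 (adjusted p = 0.0109, edgeR). Both passed under all 9 alternatives for this line, but Cox6a2 did not pass without labelled mutant replicate 1. The others moved less: Ndufa5, an accessory subunit of complex I, by 0.48 ± 0.09, Atp5k, a small membrane subunit of complex V, by 0.48 ± 0.10, and Cox7a2 by 0.33 ± 0.07. Cox7a1 gave 0.25 ± 0.12 with an adjusted p of 0.327 (edgeR). The count was 1 without labelled mutant replicate 1, 2 without labelled mutant replicate 2 or 3, and 3 without labelled control replicate 1. Over all genes, 482 of 16920 were called in either direction with all libraries. Calls were 78 of 17290, 75 of 17259 and 148 of 17344 without labelled mutant replicates 1, 2 and 3, and 489 of 17284 without labelled control replicate 1. In the same libraries 2 of 13 erythroid, 2 of 12 endothelial and 2 of 15 cardiomyocyte markers were higher, with summed erythroid levels of 7315 to 32238 CPM in libraries labelled control and 25242 to 47760 in those labelled mutant. Their part was not tested.

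In Tnnt2::Cre hearts 0 of 80 members passed in edgeR (5 at an unadjusted p below 0.05, and 2 lower by DESeq2), where 0.0763% of all 17045 genes were called higher and 0.217% lower in edgeR. DESeq2 called 360 of 25820 genes in either direction. For counts at an unadjusted p no count over all genes is given, so they cannot be called particular to the members. The median was 0.10, against 0.00 for all genes, and 0.21 with library totals, which moved all genes to 0.12. It was 0.04 without control replicate 2, 0.04 without mutant replicate 1, 0.05 without control replicate 1 and 0.19 without control replicate 3 (18 members at an unadjusted p below 0.05). Without mutant replicate 1, 2 of 81 were lower, Cox6a2 and Cox6b2, where 896 of all 17487 genes were called in either direction. The lowest values belonged to complex IV. Cox6a2 had 45.9, 52.2 and 62.6 CPM in controls and 28.0, 34.1 and 34.5 CPM in mutants, without overlap (log2 fold change -0.73 ± 0.14, adjusted p = 0.0885, edgeR). Cox8b had 2.37, 2.43 and 3.34 CPM in controls and 0.479, 1.28 and 1.37 CPM in mutants, also without overlap (log2 fold change -1.37 ± 0.38, adjusted p = 0.241, edgeR). Cox7a1 measured 0.36 ± 0.14 (adjusted p = 0.371, edgeR). The share of Cox6a2 in the summed FPKM of the Cox6a pair was 26.4% ± 1.54 in controls and 17.6% ± 3.38 in mutants (n = 3 each), and that of Cox8b in its pair 3.96% ± 0.159 and 1.55% ± 0.74. Summed erythroid markers stood at 104895 to 162120 CPM in controls and 19558 to 133649 in mutants, and their part was not tested.

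**Figure D4:**
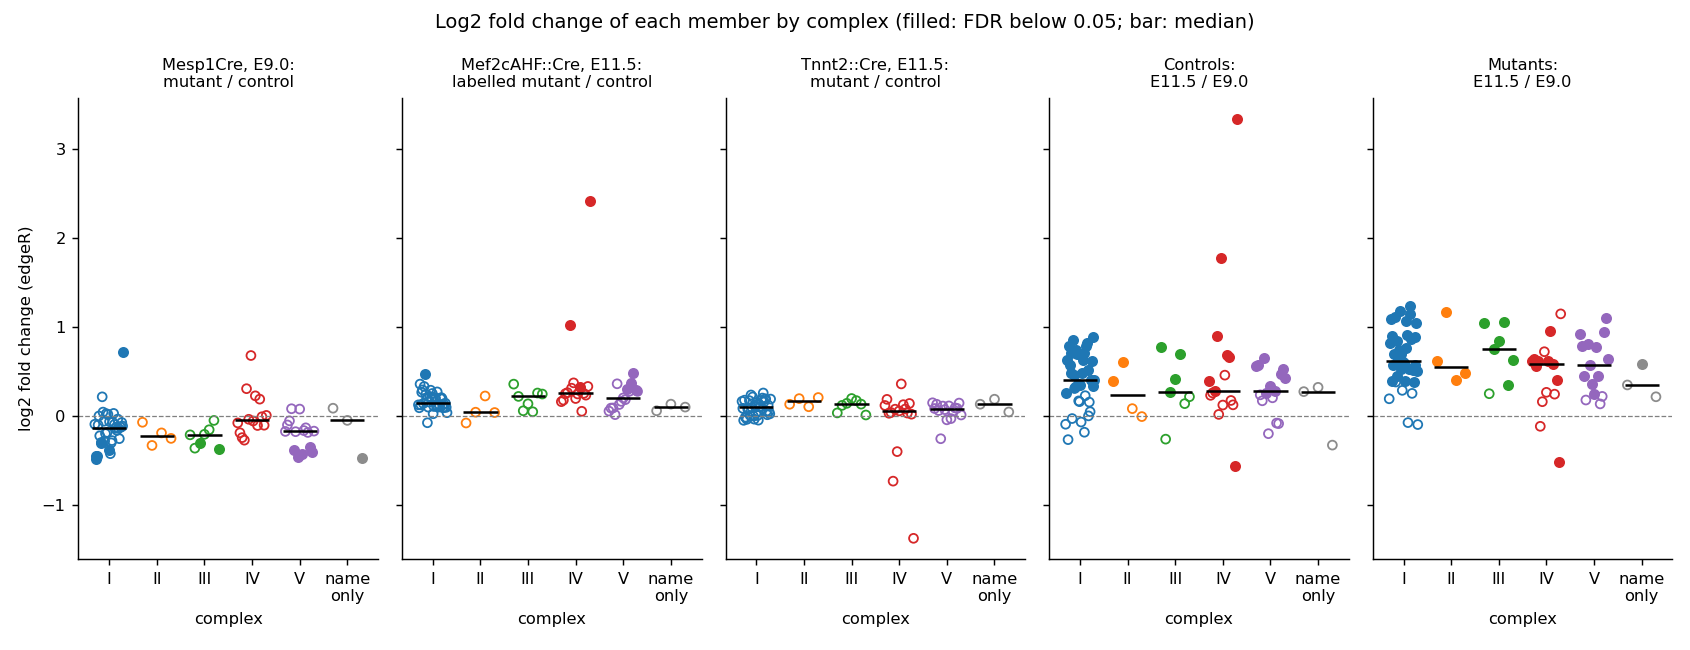
Log2 fold change of each member (edgeR with TMM scaling) by complex in the 5 comparisons, with the members past an FDR of 0.05 set apart. Medians lie below 0 for all 5 complexes in Mesp1Cre (the median of all members turns to 0.02 under library totals) and above 0 in both stage comparisons, and the signs for Mef2cAHF::Cre reverse by the column names.

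Of the heart-type genes, Cox8b and Cox6a2 differed in their change between the E11.5 lines when the difference itself was tested in the fit of 6 groups, and Cox7a1 did not pass (by the titles -0.11 ± 0.23, adjusted p = 0.915, edgeR). By the titles, the Mef2cAHF::Cre effect exceeded the Tnnt2::Cre effect for Cox8b by 3.80 ± 0.69 (adjusted p = 0.00364, edgeR) and for Cox6a2 by 1.76 ± 0.30 (adjusted p = 0.002, edgeR), the 2 of 80 members past the threshold, where 1.63% of 18391 genes were called higher and 1.56% lower. By the column names 0 members differed between these lines (edgeR, 27 at an unadjusted p below 0.05), as did 0 of all 18391 genes. Against Mef2cAHF::Cre by the titles, the Mesp1Cre effect was lower for 25 members and higher for 1, Ndufv3, where 5.61% of all genes were called lower and 5.68% higher. The 25 included 9 of 15 in complex V, with Atp5k at -0.85 ± 0.16 and Atp5e at -0.76 ± 0.17, and Ndufa11 of complex I at -0.86 ± 0.20. By the column names 3 were higher and 0 lower (12 at an unadjusted p below 0.05), where 1.63% of all genes were called in either direction. With library totals 3 were higher and 5 lower, where 3355 of 18391 genes were called in either direction.

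Summed over its members, complex V took the most reads and complex II the fewest in every group. The complex I sum was 1833 to 2107 CPM in Mesp1Cre controls and 1688 to 1830 CPM in mutants, so that the highest mutant came close to the lowest control. In Tnnt2::Cre it was 2603 to 3169 CPM in controls and 2841 to 3172 CPM in mutants, which overlapped. In Mef2cAHF::Cre it was 1697 to 1762 CPM in libraries labelled control and 1880 to 2007 CPM in those labelled mutant, without overlap. The complex IV sum in that line was 1109 to 1232 and 1364 to 1410 CPM, beside 1902 to 2406 CPM in Tnnt2::Cre controls of the same stage, which come from whole heart and another Cre line. In FPKM the complex I sums of Mesp1Cre overlapped, at 1951 to 2123 in controls and 1912 to 2102 in mutants. Those of Mef2cAHF::Cre overlapped as well, at 1762 to 1906 in libraries labelled control and 1844 to 1952 in those labelled mutant. For Tnnt2::Cre the FPKM sums did not overlap, at 2542 to 2997 in controls and 3048 to 3177 in mutants, so these separations depend on the scaling.

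**Figure D5:**
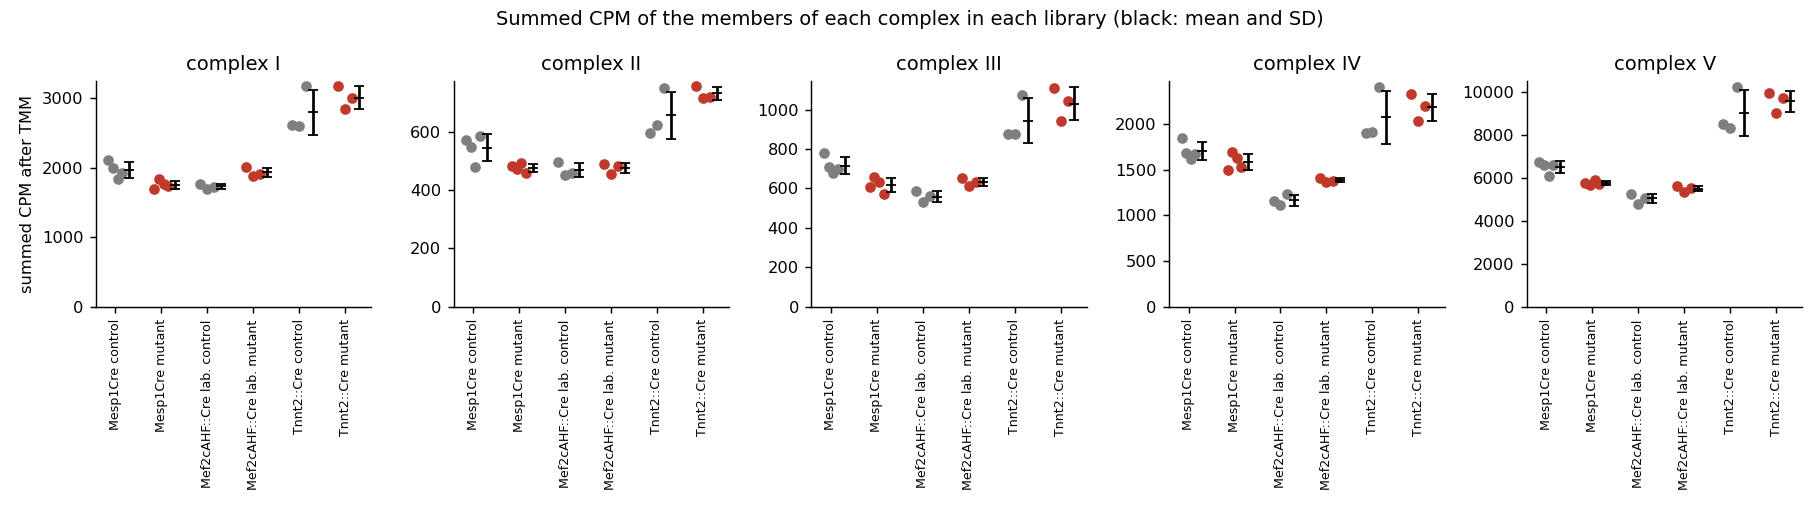
Summed CPM after TMM scaling of the members of each complex, 1 point a library, in the 6 groups by the sample titles (grey: controls, red: mutants), with the mean and SD in black and axes from 0. The E11.5 whole hearts of Tnnt2::Cre lie above the E9.0 hearts of Mesp1Cre for all 5 complexes.

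Genes around the chain were read from lists chosen by function. Of all genes, 5.29% were called lower and 6.17% higher in Mesp1Cre mutants, 18.8% lower and 19.6% higher between control stages, and 17.1% and 18.8% between mutant stages, and the counts of each list are to be read against these shares. Of 8 electron carriers and subunits outside the naming rule, 3 were lower in Mesp1Cre mutants: Cycs, which encodes cytochrome c, by 0.62 ± 0.13, Cyc1, cytochrome c1 of complex III, by 0.39 ± 0.10, and Ndufab1, the acyl carrier subunit of complex I, by 0.27 ± 0.07 on the log2 scale. At E11.5 against E9.0, 3 of these 8 were higher and 1 lower in controls, and all 8 were higher in mutants. Of 19 genes of the TCA cycle and pyruvate metabolism, 6 were lower and 1 higher in Mesp1Cre mutants, with Dlst of the oxoglutarate dehydrogenase complex at -0.48 ± 0.07 and Pcx, pyruvate carboxylase, at 1.21 ± 0.30. Between stages 11 of 19 were higher in controls and 18 in mutants, with Idh2, mitochondrial isocitrate dehydrogenase, at 1.26 ± 0.10 and 1.44 ± 0.10. The stage medians of this list were 0.30 and 0.80, beside 0.34 and 0.60 for the members.

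Assembly factors build the complexes but are not part of them. Of 33 tested in controls, 5 were higher and 2 lower at E11.5 (median -0.08), and of 34 in mutants 12 were higher and 1 lower (median 0.32). In Mesp1Cre mutants 2 of 33 were lower, Ndufaf2 (-0.81 ± 0.23) and Ndufaf4 (-0.66 ± 0.14), a share near the 5.29% of all genes. Of 20 regulators of mitochondrial biogenesis and mitochondrial DNA expression, 5 were lower at E11.5 in control hearts (list median -0.11), among them the nuclear receptor Esrrg (-0.90 ± 0.12) and the coactivator Pprc1 (-0.54 ± 0.08). In mutant hearts 3 were higher, with the nuclear receptor Ppara at 2.14 ± 0.61, and 2 lower. Among the carriers, pores and creatine kinases, Slc25a3, the phosphate carrier, rose by 0.42 ± 0.09 between control stages, and Slc25a4, the heart and muscle adenine nucleotide translocator, fell by 0.47 ± 0.10. In Tnnt2::Cre mutants 1 of 10 tested, Ckm, muscle creatine kinase, fell by 3.22 ± 0.45 on the log2 scale (adjusted p = 0.0274, edgeR). Of all genes in this line, 0.217% were called lower and 0.0763% higher.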

How the data were processed

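RNA was sequenced from 20 libraries (4 and 4 Mesp1Cre, 3 and 3 Mef2cAHF::Cre, 3 and 3 Tnnt2::Cre). The authors aligned reads to mm9 (the submitters' processing notes name TopHat2 2.0.8b), counted them per gene and deposited, in 1 table, raw counts and FPKM for every library. The 20 columns of variance-stabilised log2 values that the authors deposited beside them were not used, nor were the authors' own fold changes and p-values. The labels and the design text differ on the library kit and instrument, and the Mesp1Cre protocol text differs on stage, where the sample labels were followed.

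Counts were tested with edgeR 4.0.16 (R 4.3.3) by the quasi-likelihood F test, with TMM scaling and the filterByExpr filter, on the libraries of each comparison. Differences between lines came from 1 fit of 6 groups. P-values were adjusted by Benjamini-Hochberg over all genes tested, with a threshold of 0.05, and measure only the spread between these samples. Counts at an unadjusted p below 0.05 are given without the count over all genes. They cannot be read as a result about the members. CPM used TMM over all 20 libraries. Alternatives were DESeq2 1.42.0 size factors and Wald test, library totals, every gene with at least 1 count, the replicate number or the sample-name code as a block, limma 3.58.1 on log2(FPKM + 0.1) and log2(FPKM + 1), the 6-group fit, the column names for Mef2cAHF::Cre, each library left out, and, chosen after seeing the data, the mitochondrial genome left out. Copies were found with BLAST 2.17.0. The edgeR step was tested on simulated data.

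The members and lists were chosen with earlier results of these data known. Genes named were the target, the reference subunits and isoform pairs, up to 10 members past the threshold in each direction and comparison, the highest and lowest of each complex, and up to 3 per direction in each related list. Of 8 liver and foregut markers at most 3 passed the filter in any comparison. Replicates of a group differed by more than sampling noise, so none was merged. One of the genes that the naming rule picks is not reported here.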

Additional observations from a re-analysis of the deposited data

Results flagged for a closer look

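In groups of 4, the sample farthest from the others was set against the group's range by Dixon's test, which by chance picks out about 1 in 20 groups. Of 162 pairs of gene and group, 8 were picked out. In Mesp1Cre control replicate 3, Atp5a1 had 839.6 CPM, Atp5b 2660.2 CPM and Ndufs6 57.0 CPM. In control replicate 1, Cox7c had 192.6 CPM and Cox8c 0.184 CPM, and in control replicate 4, Uqcrb had 35.8 CPM. In mutant replicate 4, Ndufv3 had 67.0 CPM and Uqcrc2 136.3 CPM.

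The genotype effect differed between lines for the following members, by the test of the difference in the 6-group fit (edgeR, FDR below 0.05), with the difference of log2 fold changes in brackets. Members were named here because they passed this test. For Mef2cAHF::Cre minus Tnnt2::Cre, by the titles, these were Cox6a2 (1.76) and Cox8b (3.80). For Mesp1Cre minus Tnnt2::Cre they were Atp5g3 (-0.56), Atp5l (-0.56), Cox6a2 (1.03), Ndufa10 (-0.55), Ndufa12 (-0.64), Sdhb (-0.54), Sdhd (-0.48) and Uqcrc1 (-0.46). For Mesp1Cre minus Mef2cAHF::Cre, by the titles, they were Atp5e (-0.76), Atp5g1 (-0.64), Atp5g3 (-0.63), Atp5h (-0.48), Atp5j (-0.43), Atp5j2 (-0.57), Atp5k (-0.85), Atp5l (-0.72), Atp5o (-0.46), Cox4nb (-0.59), Cox5b (-0.51), Cox6a1 (-0.55), Ndufa10 (-0.56), Ndufa11 (-0.86), Ndufa12 (-0.59), Ndufa4 (-0.65), Ndufa5 (-0.79), Ndufb2 (-0.49), Ndufb4 (-0.66), Ndufb7 (-0.53), Ndufb8 (-0.49), Ndufv3 (0.66), Sdhc (-0.43), Uqcr (-0.59), Uqcrb (-0.60) and Uqcrq (-0.64). The first and last of these comparisons rest on labels that the column names reverse.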

How the results depend on the processing

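Library totals or FPKM reversed the Mesp1Cre median from -0.14 to 0.0228 (totals), 0.0238 and 0.0235 (log2(FPKM + 0.1) and log2(FPKM + 1)), with 4, 5 and 5 members higher and 3 lower each, and the column names reversed Mef2cAHF::Cre to -0.1966 (0 higher, 8 lower). Under totals and the FPKM settings the Mesp1Cre median of all genes moved too, to 0.155, 0.148 and 0.107. The median of members minus that of all genes was -0.132, -0.124 and -0.083, against -0.135 with TMM scaling. Calls over all genes were 2355, 1924 and 1925 of 15883. Lower members in Mesp1Cre were 22 in the 6-group fit and 8 with the replicate block or the code block. Calls over all genes, in either direction, were 3593 of 18391, 1384 of 15883 and 1482 of 15883, against 1821 of 15883 in the main fit. For Mef2cAHF::Cre, higher members were 14 with every gene of at least 1 count, 17 with DESeq2, 5 with the replicate block, and 2 with totals, FPKM or the 6-group fit (medians 0.0625, 0.0624 and 0.0614 under totals and the FPKM settings). In that order, calls over all genes were 1311 of 29613, 1083 of 29606 and 517 of 16920. With totals and the FPKM settings they were 605, 291 and 253 of 16920, and in the 6-group fit 129 of 18391. Lower members in Tnnt2::Cre were 1 with every gene of at least 1 count and 2 with DESeq2. Of all genes, 120 of 25833 and 360 of 25820 were then called in either direction. In the stage comparison of controls, 3 were lower with totals and 4 with either FPKM setting, and in mutants the median was 0.488, 0.4846 and 0.4729. All-gene calls between control stages were 6470, 6323 and 6371 of 16697 in these settings. The medians of all genes between mutant stages were -0.103, -0.081 and -0.060. Mesp1Cre minus Tnnt2::Cre gave 0 higher with totals (DESeq2 3 higher, 13 lower). There, 390 of 18391 and 1255 of 30391 genes were called in either direction. Mesp1Cre minus Mef2cAHF::Cre gave 3 higher and 5 lower with totals and 3 and 0 by the column names. Mef2cAHF::Cre minus Tnnt2::Cre gave 2 lower with totals and 0 higher by the column names. In these last 2 contrasts 299 and 0 of all 18391 genes were called by the column names, and 3355 and 1499 with library totals. The cause was not tested. Leaving out 1 library gave 3 to 14 lower members in Mesp1Cre, 1 to 8 higher in Mef2cAHF::Cre, 0 to 2 lower in Tnnt2::Cre and 1 to 3 lower between control stages (33 to 48 higher). Calls over all genes in these fits ran from 1052 to 2161, 75 to 662, 4 to 896 and 4758 to 6156.

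Members past the threshold kept their direction under the alternatives run for them, except the column names, which turn each Mef2cAHF::Cre sign, and library totals took 47 of 180 single results below the threshold. Among named members that did not pass, Ndufv3 in Mef2cAHF::Cre turned to -0.1002, -0.0871 and -0.0846 and Cox6b1 between control stages to -0.0228, -0.0256 and -0.0255 (totals, log2(FPKM + 0.1) and log2(FPKM + 1)), and Sdhd between control stages to 0.0255, 0.0292 and 0.0271 (every gene of at least 1 count, the replicate block and the 6-group fit). Leaving out 1 library, these ran from -0.0607 to 0.1341, -0.0708 to 0.0993 and -0.0933 to 0.0687, and Sdhc between control stages from -0.008 to 0.2056. Same-numbered samples did not deviate together (correlations -0.03 to 0.09 in Mesp1Cre, -0.01 to 0.18 in Mef2cAHF::Cre and -0.04 to 0.06 in Tnnt2::Cre), so the numbers were not used for pairing, and the replicate block gave 35 and 47 higher members between stages in controls and mutants. With this block 5224 of 16697 and 3395 of 16617 genes were called in either direction. Counts of 2 to 12 reads for Cox8b limit its values at E9.0.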
